A study of Mus musculus with 18 samples.

Results

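The genes described here are 9 chemokines and 1 myeloid growth factor: Ccl2, Ccl7, Ccl5, Cxcl1, Cxcl5, Cxcl10, Cxcl12, Cxcl16, Cx3cl1 and Csf1. These 10 genes were taken by symbol from the 50686 genes in the count files, and each of them was found. They were followed in E0771, a mouse mammary tumor cell line that is labelled triple negative. All cells carried a lentiviral CMV-Firefly Luciferase construct and a retroviral hairpin construct, LENC, that marks cells with mCherry. The hairpin targeted Renilla luciferase in the control line (cntrl) and Cdk8, a kinase that binds the Mediator complex, in the shCdk8-1 and shCdk8-2 lines. Each line is a population sorted for mCherry, and each hairpin is represented by 1 such line, so that a hairpin cannot be told apart from its line. Cells of every line were exposed for 48 h to DMSO or to 1 µM Senexin B (SnxB), an inhibitor of the kinases CDK8 and CDK19. Each of the 6 groups had 3 libraries, 18 in all. Nothing in the labels says that the 3 libraries came from separate cultures, so the p-values measure the spread between these libraries, which may be technical. The file headers number the shCdk8-2 libraries labelled 1, 2 and 3 as 2, 3 and 3 in both media. Groups and replicates here follow the labels.

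Chemokines are small secreted proteins that guide leukocytes through G protein-coupled receptors. They are classed by the spacing of their first conserved cysteines: adjacent in CC ligands, separated by a single residue in CXC ligands and by a trio of residues in CX3C ligands. Ccl2 and Ccl7 attract monocytes through the receptor Ccr2, Ccl5 and Cxcl10 attract T cells and NK cells, Cxcl1 and Cxcl5 attract neutrophils, and Cxcl12 acts through Cxcr4. Cxcl16 and Cx3cl1 are made as membrane-bound proteins that can be shed, and Csf1 (M-CSF) is the growth factor on which most macrophages depend.

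The coding sequence around these cysteines is shown for the 6 chemokines that could be tested, because it gives the class of each ligand. The sequences are from GENCODE M21 transcripts (GRCm38), are written 5′ to 3′ along the mRNA, and carry the cysteine codons in capitals.
Ccl2: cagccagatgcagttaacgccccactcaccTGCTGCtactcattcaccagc
Ccl7: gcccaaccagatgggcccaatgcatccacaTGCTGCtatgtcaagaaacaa
Ccl5: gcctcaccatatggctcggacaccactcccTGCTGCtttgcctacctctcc
Cxcl10: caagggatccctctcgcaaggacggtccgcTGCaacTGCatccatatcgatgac
Cxcl16: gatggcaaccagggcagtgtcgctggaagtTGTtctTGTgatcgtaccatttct
Cx3cl1: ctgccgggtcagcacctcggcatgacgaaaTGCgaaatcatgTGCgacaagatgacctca
The stretches of Ccl2, Ccl7, Ccl5, Cxcl10 and Cx3cl1 run over the junction of exons 1 and 2, and that of Cxcl16 lies in exon 2. On chromosome 11, that of Ccl2 spans chr11:82035731-82036526 and that of Ccl7 spans chr11:82045850-82046558, both on the plus strand. The minus-strand stretch of Ccl5 spans chr11:83529227-83530395 and that of Cxcl16 spans chr11:70459112-70459165. That of Cxcl10 spans chr5:92348166-92348757 on the minus strand and that of Cx3cl1 spans chr8:94772328-94778080 on the plus strand. Ccl2 and Ccl7 share 19 of the 51 bases shown (37.3%), and none of the 50-base stretches of their transcripts occurs in a transcript of another gene. A read of the length sequenced that matches a transcript of 1 of them perfectly therefore matches no transcript of another gene. The rest of the genome was not searched. Of the 50-base stretches of Cxcl16, 16.9% also lie in Zmynd15, and 3.59% of those of Cxcl10 lie in Art3. Both of these genes lie on the opposite strand and had at most 3 counts in any library, and the reads were counted by strand.

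Promoter sequence is shown for Csf1 and Cxcl10, since Csf1 fell in both knockdown lines while Cxcl10 was higher in shCdk8-2 cells. The RefSeq table (GRCm38.p6) held windows for 5 of the 10 genes (Cxcl1, Cxcl10, Cxcl12, Cx3cl1 and Csf1). The 250 bases before the start site are written 5′ to 3′ along the minus strand for both genes, with motif matches in capitals.
Csf1, chr3:107760470-107760719: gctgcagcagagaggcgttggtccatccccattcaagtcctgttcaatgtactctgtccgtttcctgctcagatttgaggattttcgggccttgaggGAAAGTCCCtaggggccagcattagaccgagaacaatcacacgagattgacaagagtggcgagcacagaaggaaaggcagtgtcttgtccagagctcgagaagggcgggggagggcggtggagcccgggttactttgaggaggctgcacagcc
Cxcl10, chr5:92348890-92349139: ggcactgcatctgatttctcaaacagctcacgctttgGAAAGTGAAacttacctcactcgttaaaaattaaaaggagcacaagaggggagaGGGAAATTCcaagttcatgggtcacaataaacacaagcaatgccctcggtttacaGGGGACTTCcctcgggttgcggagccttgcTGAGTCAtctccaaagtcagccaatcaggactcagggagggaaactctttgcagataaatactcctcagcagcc
Both strands were searched for the letters GGGNNNTTC (a short form of the NF-kB site), GAAANNGAA (ISRE, the interferon-stimulated response element), TGANTCA (AP-1), TTCNNNGAA (GAS) and TATAAA. Of 32851 promoter windows of this length, 11.8% held the NF-kB letters, 7.13% the ISRE letters, 6.75% the AP-1 letters, 7.02% the GAS letters and 12.4% the TATA letters. The Csf1 window held 1 NF-kB match, 153 to 145 bases before the start. The Cxcl10 window held an ISRE match 213 to 205 bases before the start, NF-kB matches 159 to 151 and 104 to 96 bases before it, and an AP-1 match 74 to 68 bases before it. No match overlapped another in these 2 windows. The Cxcl1 window held 3 NF-kB matches, 2 of which overlap each other, the Cx3cl1 window held only a TATA match directly before the start, and the Cxcl12 window held none of the 5. A match is only a run of letters, and no binding was measured here.

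The libraries held 16452260 to 22664693 counts, and 3 counts in a library correspond to 0.132 to 0.182 CPM, that is, counts scaled to library size. Cdk8 was 56.1 ± 2.12 CPM (SD, n = 3) in cntrl cells in DMSO, 21.4 ± 2.44 in shCdk8-1 cells and 38.8 ± 0.376 in shCdk8-2 cells. It was thus lower in both knockdown lines, which does not show which of the 2 hairpins each of them carries. A gene is called changed where its adjusted p is under 0.05 (edgeR, quasi-likelihood, 12772 genes tested). In DMSO, 30.1% of genes rose and 29.5% fell with shCdk8-1, and 29.0% rose and 28.1% fell with shCdk8-2. Of 7 mammary epithelial markers, 4 had at most 3 counts in every library, and the summed level of the list was 0.163 to 0.441 CPM in cntrl cells in DMSO against 8.08 to 8.94 in shCdk8-1 and 12.4 to 14.3 in shCdk8-2 cells, most of it Krt8. RNA of Esr1, the estrogen receptor, was 23.1 CPM in cntrl cells in DMSO, 1.25 in shCdk8-1 and 0.951 in shCdk8-2 cells, while Pgr had 0 counts in every library. Of the 3 receptors behind the triple-negative label, Esr1, Pgr and Erbb2, 2 were tested. Both Esr1 and Erbb2 fell with each shRNA in DMSO. Receptor protein was not measured here. Of 10 leukocyte markers, 5 had at most 3 counts in every library. The summed level of this list was 8.13 to 8.93 CPM in cntrl cells in DMSO, 5.69 to 7.64 in shCdk8-1 and 6.38 to 6.57 in shCdk8-2 cells. The list did not move as 1: of the 3 leukocyte markers tested, 1 rose and 1 fell with each shRNA in DMSO, each over 2-fold. The pan-leukocyte marker Ptprc averaged 0.279 CPM in cntrl cells, 0.0157 in shCdk8-1 cells and 0 in shCdk8-2 cells in DMSO, which is a few counts per library at most. The summed level of 5 fibroblast markers was 286 to 289 CPM in cntrl cells in DMSO, 240 to 265 in shCdk8-1 and 260 to 274 in shCdk8-2 cells. This sum does not give the direction of most of the list. Of the 4 fibroblast markers tested, 3 rose and 1 fell with shCdk8-1, and 2 rose and 1 fell with shCdk8-2. Each of these rises passed 2-fold. The summed level of 4 endothelial markers was 4.94 to 5.60, 13.8 to 15.4 and 6.43 to 6.92 CPM. Of the 2 tested, 1 rose and 1 fell with each shRNA. The part of these differences in the results below was not tested.

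Of the 10 genes, 7 had enough counts to be tested. Cxcl12, the ligand of Cxcr4, had 1 count in 1 of the 18 libraries, and the neutrophil attractant Cxcl5 had 2 and 3 counts in 2 libraries and none in the others. Cxcl1 had between 0 and 19 counts per library and stayed under the filter as well. The 2 CXC ligands of neutrophils were thus at trace level in these cells.

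Levels of different genes are compared per length, in CPM per kilobase of exon (RPKM). In cntrl cells in DMSO, Ccl2 (56.0 ± 3.85 RPKM, SD, n = 3) and Ccl7 (51.3 ± 5.26 RPKM) led, and their libraries overlapped. Csf1 followed at 43.2 ± 0.889 RPKM and lay below both in every library. Cx3cl1 was an order lower at 3.90 ± 0.163 RPKM, and Ccl5 (1.17 RPKM), Cxcl10 (0.685 RPKM), Cxcl1 (0.331 RPKM) and Cxcl16 (0.0985 RPKM) came after it. Apart from Ccl2 and Ccl7, no neighbors among these 8 overlapped.

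**Figure D1:**
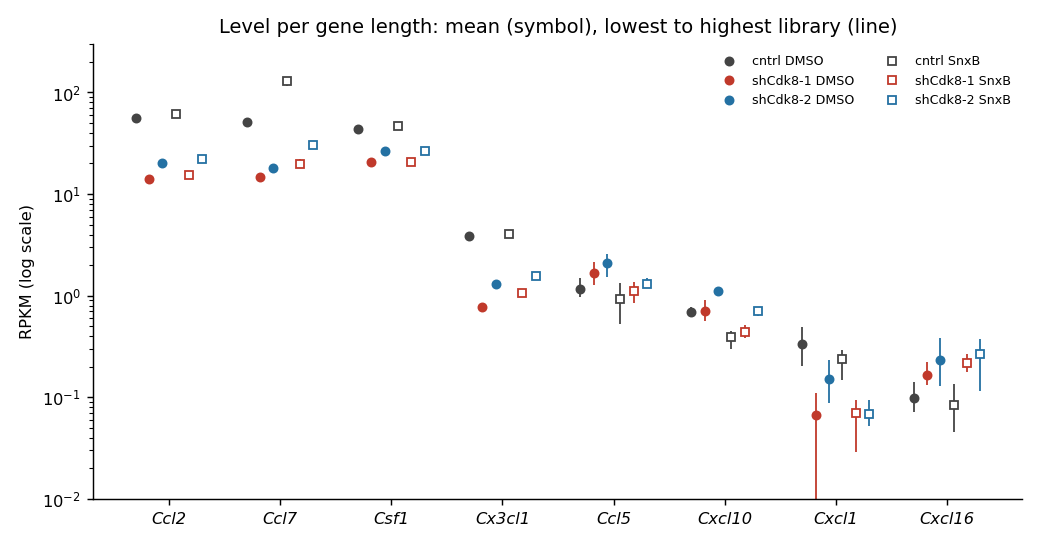
Level per gene length (RPKM, log axis) of the 8 members with counts in most libraries, for the 6 groups. Symbols are means of 3 libraries and lines run from the lowest to the highest library (a library with 0 counts is drawn at the bottom of the axis). Ccl2, Ccl7 and Csf1 lie above 10 RPKM in each group, and the other 5 below 5 RPKM.

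In the knockdown lines this order changed. Csf1 led in shCdk8-1 cells in DMSO at 20.9 ± 0.564 RPKM, above Ccl7 (14.7 ± 0.732 RPKM) and Ccl2 (14.1 ± 0.746 RPKM), which overlapped. In shCdk8-2 cells in DMSO, Csf1 was 26.4 ± 1.19 RPKM, Ccl2 20.2 ± 1.99 RPKM and Ccl7 17.9 ± 1.33 RPKM, and again the 2 CC ligands overlapped while Csf1 did not. Ccl5 moved above Cx3cl1 in both lines, with 1.65 against 0.779 RPKM in shCdk8-1 and 2.09 against 1.30 RPKM in shCdk8-2 cells. In SnxB, Ccl7 led in cntrl cells at 129 ± 12.5 RPKM and in shCdk8-2 cells at 30.2 ± 1.07 RPKM. In shCdk8-1 cells in SnxB, Csf1 (20.8 RPKM) and Ccl7 (19.9 RPKM) overlapped.

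The effect of Cdk8 knockdown was asked first, in DMSO. The 3 monocyte and macrophage ligands Ccl2, Ccl7 and Csf1 and the CX3C ligand Cx3cl1 were lower in both knockdown lines, and no library of a knockdown line reached the lowest cntrl library for any of these 4 genes. Of the 7 genes tested, 4 fell with shCdk8-1, where 29.5% of all genes did, and 0 rose, where 30.1% did. With shCdk8-2, 4 fell, where 28.1% of all genes did, and 2 rose, where 29.0% did. A 2-fold drop was passed by 4 genes with shCdk8-1, where 7.14% of all genes passed it, and by 3 with shCdk8-2, where 5.95% did. Ccl2, Ccl7 and Cx3cl1 passed it with both shRNAs, as did 5.25% of all genes, and no member rose 2-fold with both, as 4.28% of all genes did. The median log2 fold change of the 7 genes was -1.05 with shCdk8-1 and -0.71 with shCdk8-2, against 0.01 over all genes in both comparisons. In bulk RNA, fewer cells that express a gene and less RNA per cell cannot be told apart.

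Ccl2 (ENSMUSG00000035385.5, plus strand) was 58.8, 67.2 and 65.3 CPM in the cntrl libraries in DMSO. It was 15.9, 16.9 and 15.2 CPM in shCdk8-1 and 22.7, 25.4 and 20.9 CPM in shCdk8-2 libraries. The shCdk8-1 libraries were thus the lowest, and the 3 lines did not overlap. With shCdk8-1, Ccl2 fell by 74.9%. With shCdk8-2, it fell by 64.0%.

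Ccl7 (ENSMUSG00000035373.2), the neighbor of Ccl2 on the plus strand of chromosome 11, starts 8259 bases after the end of Ccl2. It was 36.3, 42.9 and 44.1 CPM in cntrl, 11.4, 12.5 and 11.5 CPM in shCdk8-1 and 13.1, 14.7 and 15.2 CPM in shCdk8-2 libraries. It fell by 71.4% in the first line and fell by 65.3% in the second, and the difference between the 2 lines did not pass the test (log2 fold change 0.28, 95% interval 0.06 to 0.49, adjusted p = 0.0592), though it did in 4 of 9 other fits. Within 150 kb of Ccl2 the annotation also holds Ccl11, Ccl12, Ccl8 and Ccl1. Of these only Ccl8, which also acts on monocytes, had enough counts to be tested. Its level was 0.987 ± 0.179 CPM (SD, n = 3) in cntrl cells, 0.140 ± 0.0405 in shCdk8-1 and 0.170 ± 0.0723 in shCdk8-2 cells, and it fell with both shRNAs (adjusted p = 6.72e-06 and 1.3e-05 from edgeR's quasi-likelihood test). The knockdown levels of Ccl8 are near that of 3 counts, so that it passed the filter only by its cntrl libraries, and its fall is not independent of the filter. Ccl12 averaged 0.282 CPM in cntrl cells in DMSO and never had more than 9 counts, and Ccl11 and Ccl1 had at most 2.

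Cx3cl1 (ENSMUSG00000031778.13), the ligand of Cx3cr1 on monocytes and NK cells, lies on the plus strand of chr8:94772009-94782427. It was 16.1, 14.8 and 15.1 CPM in cntrl libraries, 3.29, 2.96 and 2.94 CPM in shCdk8-1 and 5.35, 5.46 and 4.54 CPM in shCdk8-2 libraries in DMSO. This was the largest drop among the 7 genes in each line: it reached -2.32 on the log2 scale in shCdk8-1 (standard error 0.0922) and -1.58 in shCdk8-2 cells (standard error 0.0834). The value of Ccl7 with shCdk8-2 was -1.53 (standard error 0.0884) and that of Ccl2 was -1.47 (standard error 0.0760), within the error of that of Cx3cl1.

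Csf1 (ENSMUSG00000014599.10, chr3:107741048-107760469, minus strand) is the most abundant of the 10 genes in counts. It was 228, 233 and 224 CPM in cntrl, 107, 111 and 113 CPM in shCdk8-1 and 136, 147 and 136 CPM in shCdk8-2 libraries in DMSO. With shCdk8-1 it fell by 51.7%. With shCdk8-2 it fell by 38.9%, so that it had the smallest drop of the 4 genes in each line. The adjusted p in edgeR's quasi-likelihood test was at most 1.13e-11 for each of these 4 genes in both comparisons (Ccl7 with shCdk8-2 gave the highest).

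**Figure D2:**
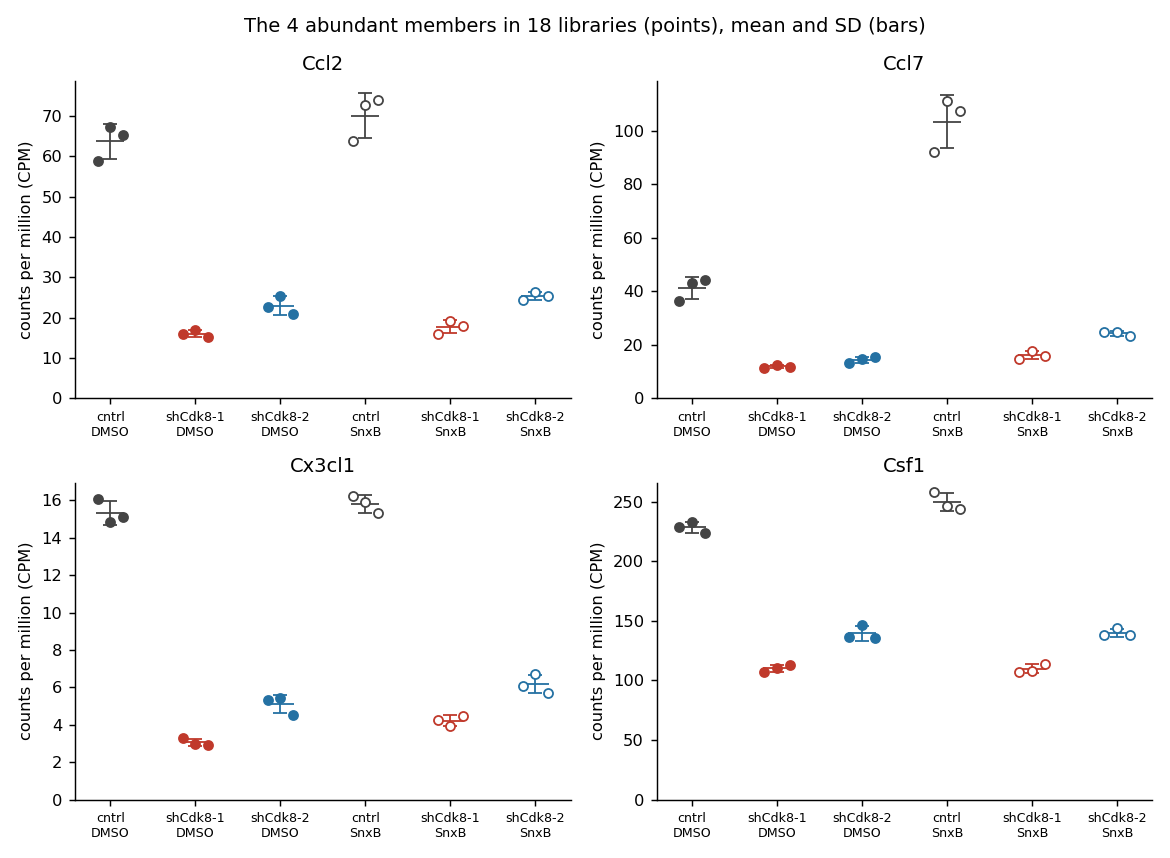
CPM of Ccl2, Ccl7, Cx3cl1 and Csf1 in each library (points; filled in DMSO, open in SnxB) with the mean and SD of 3 libraries per group. All knockdown libraries lie below all cntrl libraries in the same medium, and in cntrl cells Ccl7 is 92.0 to 111 CPM in SnxB against 36.3 to 44.1 CPM in DMSO.

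The 2 knockdown lines were also set against each other, in DMSO. Cdk8 was higher in shCdk8-2 than in shCdk8-1 cells (log2 fold change 0.86, standard error 0.0763). Ccl2 (0.52, adjusted p = 0.000185), Cx3cl1 (0.74, adjusted p = 4.54e-05), Csf1 (0.34, adjusted p = 3.18e-06) and Cxcl10 (0.66, adjusted p = 0.0132, all from edgeR) were higher as well. These are 4 of the 7 genes tested, where 11.2% of all genes rose, and 0 were lower, where 9.91% of all genes fell. The call of Cxcl10 was kept in 3 of 6 cases with a library left out, while those of Ccl2, Cx3cl1 and Csf1 were kept in each. Over the 3 lines, Cxcl10 averaged 1.54 CPM in cntrl, 1.59 in shCdk8-1 and 2.49 in shCdk8-2 cells. Each hairpin is 1 line, and a link of these differences to the level of Cdk8 was not tested. Cdk19, the other kinase that SnxB inhibits, was 93.6 ± 0.234 CPM (SD, n = 3) in cntrl, 125 ± 3.53 in shCdk8-1 and 102 ± 1.69 in shCdk8-2 cells in DMSO.

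The 3 scarce ligands that were tested behaved differently. Ccl5 (ENSMUSG00000035042.2, chr11:83525778-83530518, minus strand) was 0.923, 1.03 and 1.42 CPM in cntrl, 1.22, 1.48 and 2.06 CPM in shCdk8-1 and 2.09, 1.48 and 2.46 CPM in shCdk8-2 libraries in DMSO. Only the shCdk8-2 libraries lay entirely above cntrl, and Ccl5 rose with shCdk8-2 (log2 fold change 0.81, 95% interval 0.24 to 1.39, adjusted p = 0.0164). With shCdk8-1 it did not pass the test (log2 fold change 0.47, 95% interval -0.14 to 1.08, adjusted p = 0.173). The increase rested on 15 to 48 counts per library, and with 1 library left out in turn the adjusted p ranged from 0.0068 to 0.0756, passing the threshold in 2 of 6 cases.

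Cxcl10 (ENSMUSG00000034855.13, chr5:92346638-92348889, minus strand), an interferon-induced ligand of Cxcr3, was 1.48, 1.73 and 1.42 CPM in cntrl, 1.27, 2.05 and 1.45 CPM in shCdk8-1 and 2.31, 2.70 and 2.46 CPM in shCdk8-2 libraries in DMSO. It rose with shCdk8-2 (log2 fold change 0.69, 95% interval 0.30 to 1.08, adjusted p = 0.00369), and this held with each library left out. With shCdk8-1 the log2 fold change was 0.02 (95% interval -0.53 to 0.58). Its receptor Cxcr3 was 5.61 ± 1.01 CPM (SD, n = 3) in cntrl, 0.0708 ± 0.0373 in shCdk8-1 and 0.321 ± 0.0989 in shCdk8-2 cells. The shCdk8-1 level of Cxcr3 is below that of 3 counts, and the gene passed the filter only by its cntrl libraries.

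Cxcl16 (ENSMUSG00000018920.11, chr11:70453983-70459984, minus strand) had 3 to 21 counts per library. The cntrl libraries had at most 8, so that it passed the filter only by its knockdown libraries. In DMSO it was 0.431, 0.217 and 0.245 CPM in cntrl, 0.423, 0.399 and 0.671 CPM in shCdk8-1 and 0.391, 0.561 and 1.15 CPM in shCdk8-2 libraries, so that the groups overlapped. Neither difference passed the test, with a log2 fold change of 0.76 for shCdk8-1 (95% interval -0.40 to 1.92, adjusted p = 0.25) and 1.20 for shCdk8-2 (95% interval 0.12 to 2.28, adjusted p = 0.0536). The value for shCdk8-2 did pass in 5 of 7 other fits (adjusted p 0.0231 to 0.0600) and in 2 of 6 with a library left out.

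Cxcl1 (ENSMUSG00000029380.11, chr5:90891241-90893115, plus strand) was not tested in the main fit. It had 9, 7 and 19 counts in cntrl, 0, 3 and 4 in shCdk8-1 and 10, 5 and 3 in shCdk8-2 libraries in DMSO. In SnxB it had 10, 6 and 10 counts in cntrl, 1, 3 and 3 in shCdk8-1 and 2, 2 and 3 in shCdk8-2 libraries. All shCdk8-1 libraries were below all cntrl libraries in the same medium, and the same was true of shCdk8-2 in SnxB. Without a filter on low counts Cxcl1 fell with shCdk8-1 in DMSO (adjusted p = 0.000207) and with both shRNAs in SnxB (adjusted p = 0.0155 and 0.0164), and with shCdk8-2 in DMSO it did not pass (adjusted p = 0.0707, all from edgeR). No fold is given, since the knockdown libraries lie near 3 counts. Some fits with a library left out kept the gene past the filter, only by its cntrl libraries. Calls in these fits are therefore not independent of the filter. In those fits the first call held (adjusted p at most 0.0113, edgeR). No fit without cntrl replicate 1 or 3 in DMSO kept the gene. The first call was therefore not tried without the cntrl libraries that had the most counts. The calls in SnxB were lost without cntrl replicate 1 or 3, without shCdk8-1 replicate 1 and without shCdk8-2 replicate 1 or 2 (highest adjusted p = 0.0955, edgeR). The difference with shCdk8-2 in DMSO passed without cntrl replicate 2 (adjusted p = 0.0259) or shCdk8-2 replicate 1 (adjusted p = 0.0305).

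**Figure D3:**
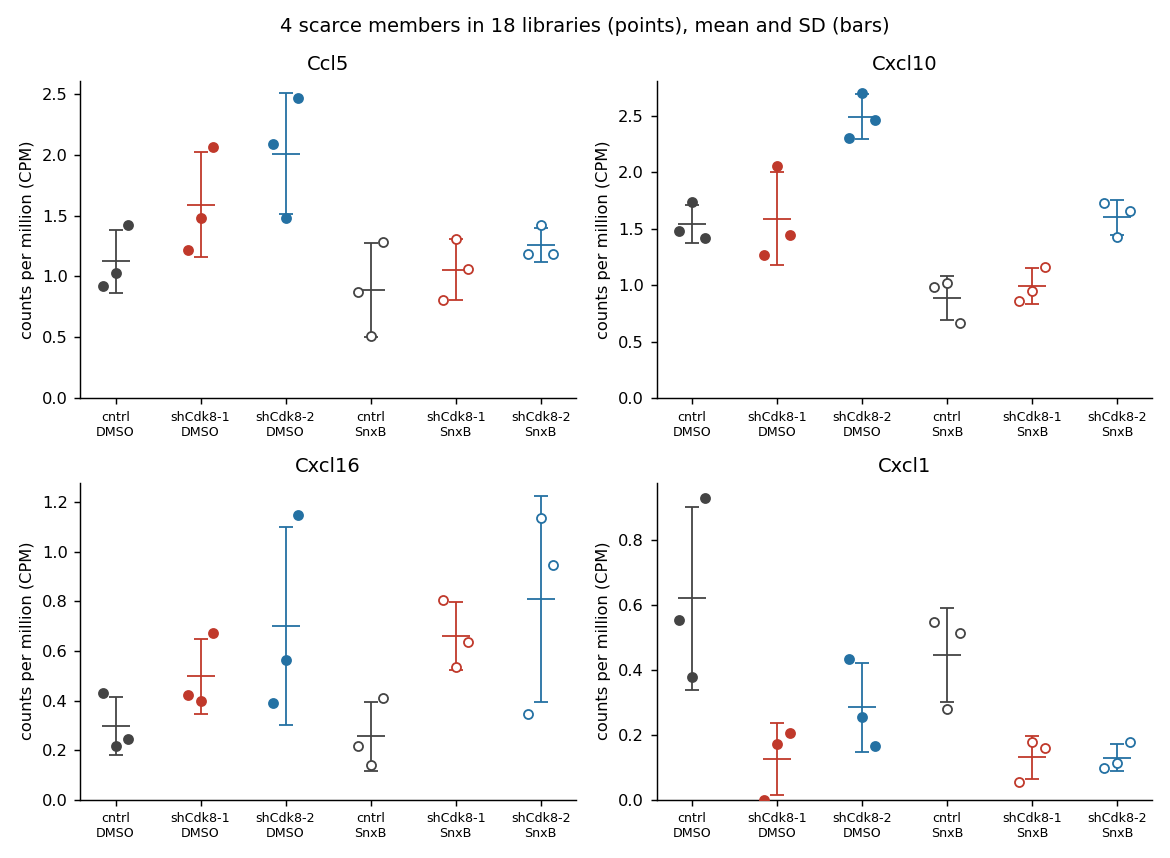
CPM of Ccl5, Cxcl10, Cxcl16 and Cxcl1 in each library (points; filled in DMSO, open in SnxB), with the mean and SD of 3 libraries per group. Cxcl10 is highest in shCdk8-2 cells in DMSO (2.31 to 2.70 CPM) and lower in SnxB in each line, and Cxcl1 is at or below 4 counts in all shCdk8-1 libraries.

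The second question was what inhibition of the kinase did in cntrl cells. Ccl7 was the only member that rose, where 3.41% of all genes rose, and Cxcl10 the only one that fell, where 2.14% fell. Ccl7 was 92.0, 111 and 107 CPM in SnxB, each more than 2-fold above the highest DMSO library. It was 2.51-fold higher (95% interval of the log2 fold change 1.17 to 1.49, adjusted p = 9.1e-10), and ranked as the 55th most raised of the 12772 genes. Its neighbor Ccl2 was 63.8, 72.7 and 74.0 CPM and overlapped the DMSO libraries (log2 fold change 0.14, 95% interval -0.01 to 0.28, adjusted p = 0.314). Cx3cl1 was 16.2, 15.9 and 15.3 CPM and overlapped as well (log2 fold change 0.04, 95% interval -0.10 to 0.19). Csf1 was 258, 246 and 244 CPM, above all DMSO libraries, and missed the threshold (log2 fold change 0.13, 95% interval 0.05 to 0.21, adjusted p = 0.0555). Cxcl10 was 0.983, 1.02 and 0.666 CPM, below all DMSO libraries. Its log2 fold change of -0.79 (standard error 0.227) had an adjusted p of 0.0474 in edgeR's test, and this call was lost with any 1 of the 6 libraries left out (adjusted p 0.071 to 0.19). In cntrl cells in SnxB the summed level of the leukocyte markers was 6.01 to 8.44 CPM, that of the endothelial markers 2.71 to 3.25 CPM and that of the fibroblast markers 331 to 390 CPM, and their part in these changes was not tested.

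For Ccl2, Cx3cl1 and Csf1 the 95% interval of the SnxB effect in cntrl cells did not reach those of the shRNAs: the lowest bound was -0.10 with SnxB, while the highest bound with an shRNA was -0.63. These comparisons share the cntrl libraries in DMSO. For Ccl7, the changes had opposite signs, with -1.81 and -1.53 for the shRNAs and 1.33 for SnxB.

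**Figure D4:**
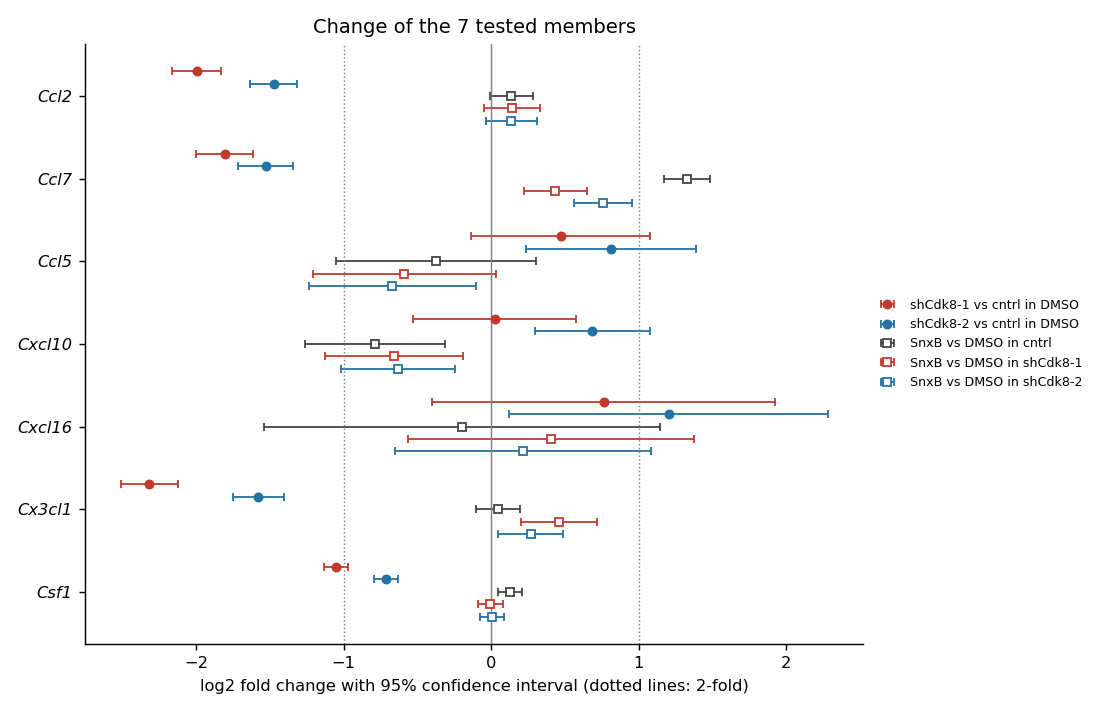
Log2 fold changes of the 7 tested members with 95% confidence intervals, for the 2 knockdown lines against cntrl in DMSO (filled circles) and for SnxB against DMSO in the 3 lines (open squares). Ccl2, Ccl7, Cx3cl1 and Csf1 lie left of 0 with both shRNAs, and Ccl7 lies right of 0 with SnxB in all 3 lines.

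In the knockdown lines SnxB raised Ccl7 too, but less. In shCdk8-1 cells Ccl7 went from 11.4, 12.5 and 11.5 CPM in DMSO to 14.7, 17.6 and 15.6 CPM in SnxB. This was a log2 fold change of 0.44 (95% interval 0.22 to 0.65, adjusted p = 0.0342), and 1 of the 7 genes rose, where 0.916% of all genes did. That call was lost without shCdk8-1 replicate 1 or 3 in DMSO and without replicate 2 or 3 in SnxB (highest adjusted p = 0.187). In shCdk8-2 cells Ccl7 went from 13.1, 14.7 and 15.2 to 24.8, 24.5 and 23.2 CPM, a log2 fold change of 0.76 (95% interval 0.57 to 0.96, adjusted p = 7.69e-05), and again it was the only member that rose, where 0.987% of all genes did. The SnxB effect was smaller in shCdk8-1 than in cntrl cells by 0.89 on the log2 scale (interaction -0.89, standard error 0.127, adjusted p = 0.00304, edgeR), which was the only interaction passing the test among the 7 genes, where 0.305% of all genes passed. The interaction for shCdk8-2 was -0.57 (95% interval -0.82 to -0.32, adjusted p = 0.114), and 0 of the 7 genes passed there, where 0.0548% of all genes passed. With DESeq2 in place of edgeR it did pass (adjusted p = 0.0128). For Ccl2 both interactions were 0.00, with a 95% interval of -0.23 to 0.24 for shCdk8-1 and -0.21 to 0.21 for shCdk8-2.

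The ratio of Ccl7 to Ccl2 counts does not depend on library scaling and shows the same in single libraries. In DMSO it was 0.616, 0.638 and 0.675 in cntrl, 0.717, 0.737 and 0.756 in shCdk8-1 and 0.580, 0.579 and 0.727 in shCdk8-2 libraries. In SnxB it was 1.44, 1.53 and 1.45 in cntrl, 0.919, 0.916 and 0.878 in shCdk8-1 and 1.02, 0.931 and 0.918 in shCdk8-2 libraries. Every SnxB library was above every DMSO library, and the cntrl libraries in SnxB were above all others.

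**Figure D5:**
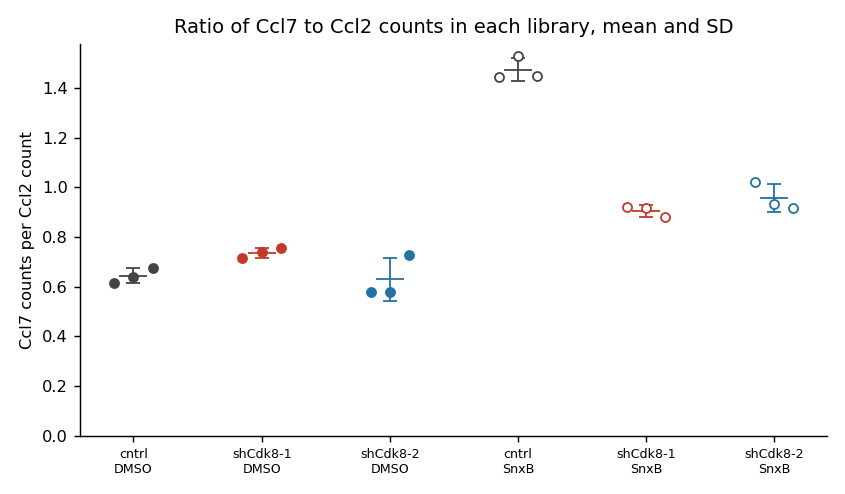
Ccl7 counts per Ccl2 count in each library (points; filled in DMSO, open in SnxB), with the mean and SD of 3 libraries per group. The means are 0.643, 0.737 and 0.629 in DMSO, and 1.47, 0.905 and 0.957 in SnxB, for cntrl, shCdk8-1 and shCdk8-2.

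Cxcl10 was lower in SnxB than in DMSO in the 2 knockdown lines as well, without overlap, at 0.860, 0.951 and 1.16 CPM in shCdk8-1 and 1.72, 1.42 and 1.65 CPM in shCdk8-2 cells. Neither difference passed the test (adjusted p = 0.171 and 0.0914), and its interactions were 0.13 (95% interval -0.57 to 0.83) and 0.16 (95% interval -0.48 to 0.79). Cx3cl1 was higher in SnxB in both knockdown lines without overlap, at 4.25, 3.92 and 4.49 CPM in shCdk8-1 (adjusted p = 0.067) and 6.11, 6.71 and 5.73 CPM in shCdk8-2 cells (adjusted p = 0.263), and did not pass. Csf1 stayed within its DMSO range or overlapped it in both, with a log2 fold change of -0.01 (95% interval -0.09 to 0.08) in shCdk8-1 and 0.00 (95% interval -0.08 to 0.09) in shCdk8-2 cells. For Ccl5 the estimates in SnxB were below 0 in all 3 lines (log2 fold changes -0.37 in cntrl, -0.59 in shCdk8-1 and -0.67 in shCdk8-2 cells), and none of these passed.

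Among cells kept in SnxB, the knockdown lines were lower than cntrl in the same 4 genes as in DMSO. With shCdk8-1, 4 of the 7 genes fell, where 30.1% of all genes did, and 1 rose, where 30.5% of all genes did. With shCdk8-2, 4 fell, where 28.6% did, and 2 rose, where 28.1% did. Ccl7 had the largest difference, from 103 ± 10.0 CPM (SD, n = 3) in cntrl to between 14.7 and 17.6 CPM in shCdk8-1 and 24.2 ± 0.859 CPM in shCdk8-2 cells (log2 fold changes -2.70 and -2.10). Ccl2 was 17.7 ± 1.62 and 25.3 ± 1.03 CPM (-1.99 and -1.47), Cx3cl1 4.22 ± 0.287 and 6.18 ± 0.497 CPM (-1.90 and -1.35) and Csf1 110 ± 3.84 and 140 ± 3.48 CPM (-1.18 and -0.83). Cxcl16 rose with both shRNAs in SnxB, from 0.219, 0.139 and 0.410 CPM in cntrl to 0.806, 0.535 and 0.634 CPM in shCdk8-1 (adjusted p = 0.0332) and 0.345, 1.14 and 0.945 CPM in shCdk8-2 cells (adjusted p = 0.0111). These calls rest on 3 to 20 counts per library, and with 1 library left out they held in 2 of 6 cases for shCdk8-1 and 4 of 6 for shCdk8-2. Cxcl16 passed the filter only by its knockdown libraries, so these rises are not independent of the filter. The lowest shCdk8-2 library overlapped the cntrl libraries. Cxcl10 rose with shCdk8-2 in SnxB (log2 fold change 0.84, adjusted p = 0.00327).

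The receptors of these ligands were mostly absent from the cells. Over all genes in DMSO, 30.1% rose and 29.5% fell with shCdk8-1, and 29.0% rose and 28.1% fell with shCdk8-2. Of 23 chemokine receptors, 4 were tested. With each shRNA in DMSO 0 of these rose and 2 fell, Cxcr3 and the decoy receptor Ackr3 (27.3 CPM in cntrl, 10.5 in shCdk8-1 and 17.7 in shCdk8-2 cells), which takes up Cxcl12. Cxcr3 passed the filter only by its cntrl libraries, so its fall with the shRNAs is not independent of the filter. The median log2 fold change of the 4 was -1.17 with shCdk8-1 and -0.41 with shCdk8-2, against 0.01 over all genes. Only Cxcr3 fell with SnxB in cntrl cells (log2 fold change -0.81, adjusted p = 0.0276, edgeR), where 2.14% of all genes fell. The receptor of Csf1, Csf1r, averaged 0.401 CPM in cntrl cells in DMSO and had too few counts to be tested. Ccr2 and Cx3cr1 had at most 3 counts in any library. Of 28 other chemokines, 3 were tested, of which 1 rose and 2 fell with each shRNA. Ccl28, a mucosal chemokine, averaged 0.0386 CPM in cntrl, 0.379 in shCdk8-1 and 0.544 in shCdk8-2 cells, and rose with both (adjusted p = 0.000408 and 3.59e-05, edgeR). It had at most 12 counts in any library, and its cntrl level is below that of 3 counts. Ccl28 passed the filter only by its knockdown libraries, so this rise is not independent of the filter. Those that fell were Ccl8, described above with its neighbors, and Ccl25, a gut and thymus chemokine (8.95, 6.96 and 7.46 CPM). The median log2 fold change was -0.36 with shCdk8-1 and -0.26 with shCdk8-2.

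Among 10 other hematopoietic growth factors and receptors, 3 were tested. With each shRNA in DMSO, 1 rose, where 29.0% to 30.1% of all genes did, and 0 fell, where 28.1% to 29.5% did. The gene that rose was Kitl, stem cell factor (143 CPM in cntrl and 155 in both knockdown lines), with a log2 fold change of 0.11 in both, and the median of the 3 was 0.01 with shCdk8-1 and 0.04 with shCdk8-2. Il34, the other ligand of the Csf1 receptor, was 16.5, 16.6 and 15.8 CPM and did not pass. Flt3l, a growth factor of dendritic cells, fell with SnxB in cntrl cells from 3.79 ± 0.269 to 2.33 ± 0.362 CPM (SD, n = 3; adjusted p = 0.0202, edgeR). Of 10 enzymes that shed or trim these ligands, 9 were tested. With each shRNA 3 of them rose and 4 fell, against the same shares of all genes. The median log2 fold change of the 9 was -0.05 with shCdk8-1 and -0.24 with shCdk8-2. Adam10, a main sheddase of Cx3cl1 and Cxcl16, fell with both shRNAs (291, 236 and 247 CPM), and Adam17 was 162, 156 and 180 CPM and rose with shCdk8-2. Those that passed 2-fold with both were Mmp9 (9.97 CPM in cntrl, 1.14 in shCdk8-1 and 4.25 in shCdk8-2 cells), the metalloprotease Adam8 (7.68, 1.43 and 1.95 CPM) and Mmp2, which trims Ccl7 and rose (13.1, 44.5 and 43.3 CPM). Mmp2 also rose with SnxB in cntrl cells (log2 fold change 0.43, adjusted p = 0.000908, edgeR), and Rhbdf2, a partner of Adam17, fell (-0.27, adjusted p = 0.0457).

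Of 17 inducers and sensors upstream of chemokine genes, 14 were tested. With shCdk8-1, 1 rose, where 30.1% of all genes did, and 8 fell, where 29.5% did. With shCdk8-2, 1 rose, where 29.0% of all genes did, and 9 fell, where 28.1% did. Tnf was low, at 0.641 CPM in cntrl, 0.119 in shCdk8-1 and 0.271 in shCdk8-2 cells. The Toll-like receptors Tlr2 (3.66, 0.818 and 1.57 CPM) and Tlr3 (24.4, 7.43 and 4.83 CPM) fell 2-fold with both, and Tlr4 fell in both lines (66.0, 34.1 and 37.3 CPM) without passing 2-fold. Ifih1, a sensor of double-stranded RNA, rose (4.08, 12.1 and 10.3 CPM). The median log2 fold change of the 14 was -0.25 with shCdk8-1 and -0.28 with shCdk8-2. With SnxB in cntrl cells 3 of them fell, Tlr2, Tlr3 and Tlr4, where 2.14% of all genes fell, and 0 rose, where 3.41% did. Of 22 transcription factors and feedback genes, 21 were tested. Of these, 5 were higher and 13 lower with shCdk8-1, and 5 higher and 11 lower with shCdk8-2, against the same shares of all genes as above. None was called with SnxB in cntrl cells. A 2-fold change with both shRNAs was passed by Nfkbie, an inhibitor of NF-kB, which fell (log2 fold changes -1.66 and -1.38), and by Irf7, a driver of interferon genes, which rose (1.39, 4.26 and 4.42 CPM). The median log2 fold change of this list was -0.23 with shCdk8-1 and -0.12 with shCdk8-2, against 0.01 for all genes in both.

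The genes most like each member over the 6 group means of log2 CPM were sought among 11181 genes, those that averaged 1 CPM or more. Values are Pearson correlations over 6 points that share libraries, and are a description only. The closest to Ccl2 were Slc44a2, Cog3, Decr1, Fyn and Pus3 (r = 0.9992 to 0.9997), to Cx3cl1 Rbbp9, Gins3, Cyth3, Rps14 and Atp8b4 (0.998 to 0.9997) and to Csf1 Apcdd1, Cdon, Mapk4, Bcas3 and Shb (0.9987 to 0.9997). For Ccl7, whose pattern differs from theirs in SnxB, they were Rpn2, Arfgap1, Colgalt1, Map4k3 and Ubl7 (0.994 to 0.997). Among the members, Ccl2 was closest to Csf1 (0.996) and Cx3cl1 (0.993) and less so to its neighbor Ccl7 (0.931). Ccl5 and Cxcl10 had 0.919 with each other and -0.60 and -0.31 with Ccl2.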

How the data were processed

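The authors trimmed 50-base single-end reads with Trimmomatic 0.36, mapped them with STAR 2.5.2b to GENCODE M13 (GRCm38) and counted reads on the exon union of each gene by strand with featureCounts 1.5.1, as the file headers and the study's methods state. The deposited values are raw counts per gene, 1 column per library, not normalized or pooled. The 18 libraries were scaled by TMM and fitted together in edgeR 4.0.16 (R 4.3.3) with 1 mean per group. Genes were kept by filterByExpr (minimum count 10, minimum total 15), tested with glmQLFTest, and adjusted by Benjamini-Hochberg over the 12772 genes tested. Calls required an adjusted p below 0.05, with a 2-fold change as an extra limit where named. Standard errors and 95% intervals were derived from the test. CPM use TMM-scaled totals, and RPKM divide them by exon length in kilobases.

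The 10 members and the gene lists were chosen with earlier results of these data known. From the lists, genes are named if they passed 2-fold with both shRNAs or were called with SnxB in cntrl cells, at most 6 per list. Ackr3, Ccl25, Kitl, Il34, Adam10, Adam17, Csf1r, Ccr2, Cx3cr1 and the locus neighbors were named after their values were seen. No rule set which of the cell type markers are named. The code was tested on simulated data. Alternatives were DESeq2 1.42.0, edgeR's likelihood ratio test, other scalings and filters, fewer libraries in the fit, other thresholds, the replicate block and each library left out. No 2 libraries were identical, and all came from the same flow cell and lanes per the deposited files.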

Additional observations from a re-analysis of the deposited data

Results flagged for a closer look

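The response of Ccl7 to SnxB differed between cntrl and shCdk8-1 cells by a test of the difference itself, with an interaction of -0.89 on the log2 scale (standard error 0.127, adjusted p = 0.00304, edgeR's quasi-likelihood test). Ccl7 rose in SnxB in 3 of 3 libraries of both lines relative to every DMSO library of the same line. With each of the 12 libraries left out in turn, the interaction stayed between -0.97 and -0.82 and passed the threshold each time. Each of the 2 lines is 1 sorted population, so the hairpin and the line cannot be told apart.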

How the results depend on the processing

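Of the members' log2 fold changes under another fit, 991 kept direction and call, 31 lost the call, 18 gained it and 38 changed sign. Each of the 38 was a value that did not pass in either fit. They were Csf1 for SnxB in shCdk8-1 cells (0.00080 with library totals, -0.037 to 0.012 with a library left out), Ccl2 in the shCdk8-1 interaction (-0.023 with no filter, -0.00028 with the replicate block, -0.062 to 0.079 with a library left out) and in the shCdk8-2 interaction (-0.019 with no filter, -0.061 to 0.090), and the following with a library left out: Cxcl10 with shCdk8-1 in DMSO (-0.19 to 0.17) and in SnxB (-0.0039 to 0.27) and in the shCdk8-1 interaction (-0.029 to 0.34), Cxcl16 for SnxB in cntrl (-0.72 to 0.12) and shCdk8-2 cells (-0.12 to 0.74) and between the knockdown lines (-0.084 to 0.75), Csf1 for SnxB in shCdk8-2 cells (-0.011 to 0.050), Ccl5 with shCdk8-1 in SnxB (-0.049 to 0.63) and in the shCdk8-1 (-0.51 to 0.16) and shCdk8-2 interactions (-0.59 to 0.090). Ccl2, Cx3cl1 and Csf1 changed no call except under the 2-fold limit. For SnxB in cntrl cells the 2 members called became 1, Ccl7, with Cxcl10 lost, under DESeq2 size factors, no filter, the 2-fold limit, an adjusted p under 0.01, the replicate block, 12 libraries, only the groups compared and DESeq2, and likewise with each library left out (1 to 1). For SnxB in shCdk8-1 cells the 1 member called became 0 under the 2-fold limit, an adjusted p under 0.01 and only the groups compared, and was 0 to 1 with a library left out. For SnxB in shCdk8-2 cells 1 became 2 under the likelihood ratio test (Cxcl10, adjusted p = 0.0413) and 0 under the 2-fold limit. For the shCdk8-2 interaction 0 became 1, Ccl7, under the likelihood ratio test, no filter, the replicate block (adjusted p = 0.0274) and DESeq2, and was 0 to 1 with a library left out (called without cntrl replicate 1 in SnxB). The 2-fold limit took the shCdk8-1 interaction from 1 to 0, shCdk8-2 against cntrl in DMSO from 6 to 3 (Csf1, Ccl5 and Cxcl10 lost) and shCdk8-2 against shCdk8-1 from 4 to 0. The causes were not tested, apart from the 2-fold limit, which removes smaller changes by construction. By the labels' replicate numbers, libraries of the same number did not deviate together (correlations of -0.16 to 0.247 over 24 pairs of groups, 2 of them over 0.1), but the file headers number the shCdk8-2 libraries differently, so that neither this check nor the block is firm for that line. The replicate block also brought Cxcl16 with shCdk8-2 in DMSO (adjusted p = 0.0388) and Ccl7 between the knockdown lines (adjusted p = 0.0158) past the threshold, as other fits did, and changed no other call. The order of members per length was the same in TPM. Depth limits Ccl5, Cxcl10, Cxcl16 and Cxcl1, which had under 60 counts in each library.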
